A study of Mus musculus with 8 samples.

Results

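The genes described here are 35 members of the homologous recombination and Fanconi pathways, with their checkpoint kinases and 2 further repair genes, *Xrcc1* and *Msh6*. They were taken by name from the 20308 gene symbols of the count files, where all 35 were found. The list was written from what the genes are known to do, but with earlier results of these data known. RNA was measured in CD11b+ cells, which are microglia and other myeloid cells, pulled with magnetic beads from the right brain hemisphere of 4 control and 4 CSF1 OE mice, with 1 library per mouse. CSF1 OE mice carry transgenes that drive the secreted form of CSF1, a growth and survival factor of microglia, in a subset of GFAP+ cells through the TRE/tTA system, and the labels call the others controls for CSF1 over-expression without giving their alleles. All 8 mice were C57Bl/6 X CD1 F1 and 14 or 15 days old. The comparison asks whether repair genes differed between the genotypes, and in which direction beside genes of dividing cells.

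Homologous recombination mends a broken chromosome by copying the sister chromatid, and so works mainly in S and G2 phase. The broken end is cut back to a single strand, BRCA1 and BRCA2 prepare it for strand exchange, and RAD54 proteins help it invade the copy. The Fanconi proteins clear crosslinks between the strands: a core complex marks FANCD2 and FANCI with ubiquitin, nucleases and helicases then open the lesion, and recombination completes the repair. ATM and ATR, with CHEK2 and CHEK1, hold the cell cycle while this goes on. Transcription of many of these genes is known to rise in cycling cells through E2F and DREAM sites, and 15 of the 35 members were listed as having such cell cycle-linked transcription, namely *Brca1*, *Bard1*, *Brca2*, *Rad54l*, *Rad54b*, *Fanca*, *Fancb*, *Fancd2*, *Fanci*, *Brip1*, *Blm*, *Exo1*, *Eme1*, *Chek1* and *Msh6*. Genes of this kind were also listed apart from the members, as 40 S phase genes, 52 G2 and M phase genes and 20 proliferation genes. None of the 20 proliferation genes is a member, and 14 of them also stand in the G2 and M list.

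Libraries held between 12053280 and 15475488 expected counts, and 13407 genes passed the filter on low counts, all 35 members among them. *Csf1* itself was at 282 ± 98.7 CPM (SD, n = 4) in control and 322 ± 107 CPM (SD, n = 4) in CSF1 OE cells (log2 fold change 0.19, SE 0.33, edgeR's quasi-likelihood test, Benjamini-Hochberg adjusted p = 0.796), and the transgene is driven outside the cells measured here. *Csf1r*, its receptor, was at 9722 and 10091 CPM. The 10 microglia markers together held between 22183 and 38599 CPM in control and between 28583 and 39763 CPM in CSF1 OE libraries, so that the labelled cell type was present in all of them. Nothing in the labels says which mice were littermates, and the p-values measure the spread between mice.

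The windows before the start sites are shown for 4 members, because E2F and CCAAT elements are the sequences through which cell cycle-linked transcription is known to act. Each is the 250 bases before the RefSeq start (GRCm38.p6), on the strand of the gene, and holds no annotated exon. Capitals mark a match, on either strand, to an E2F motif (TTTGGCGC, TTTCCCGC, TTTCGCGC or TTTGCCGC), to the cell cycle homology region (TTTGAA) or to CCAAT. *Brca2* (chr5:150522371-150522620, plus strand) holds an E2F match, *Fanca* (chr8:123318577-123318826, minus strand) and *Msh6* (chr17:87974800-87975049, plus strand) hold CCAAT, and *Xrcc3* (chr12:111813880-111814129, minus strand), a member without that link, holds 6 copies of CCAAT.
Brca2: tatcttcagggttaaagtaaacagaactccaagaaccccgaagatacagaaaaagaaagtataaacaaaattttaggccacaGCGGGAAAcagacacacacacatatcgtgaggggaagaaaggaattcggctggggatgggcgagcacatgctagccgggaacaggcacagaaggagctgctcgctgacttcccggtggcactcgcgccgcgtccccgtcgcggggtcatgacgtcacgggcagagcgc
Fanca: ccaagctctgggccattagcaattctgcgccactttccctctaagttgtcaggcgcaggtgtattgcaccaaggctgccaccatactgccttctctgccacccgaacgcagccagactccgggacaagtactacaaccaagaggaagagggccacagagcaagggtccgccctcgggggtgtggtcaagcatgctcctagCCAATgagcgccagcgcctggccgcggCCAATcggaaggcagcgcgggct
Msh6: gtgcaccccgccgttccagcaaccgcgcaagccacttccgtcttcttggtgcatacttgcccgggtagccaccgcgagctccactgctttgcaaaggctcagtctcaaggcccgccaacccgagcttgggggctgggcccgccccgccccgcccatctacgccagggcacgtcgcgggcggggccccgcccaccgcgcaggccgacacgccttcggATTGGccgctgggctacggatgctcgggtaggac
Xrcc3: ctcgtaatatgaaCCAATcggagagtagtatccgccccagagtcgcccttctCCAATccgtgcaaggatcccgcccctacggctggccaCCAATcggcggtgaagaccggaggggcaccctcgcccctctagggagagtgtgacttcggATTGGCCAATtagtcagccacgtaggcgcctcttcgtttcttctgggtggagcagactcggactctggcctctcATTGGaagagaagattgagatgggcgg

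Of the 35 members, 28 had a window of 250 bases before a RefSeq start. Unlike those shown, many of these windows hold annotated exon bases. Those of *Atr*, *Chek1*, *Fancf*, *Fancl*, *Fancm* and *Mre11a* are exon over all 250 bases. An E2F motif was found in 4 of the 28 members (14.3%), against 2.16% of 27025 genes. The 4 were *Bard1* and *Brca2* of the linked genes and *Chek2* and *Fancg* of the others. CCAAT was found in 16 (57.1%) against 37.5% of all genes, in 58.3% of the linked and 56.2% of the other members with a window. The cell cycle homology region was found in 1 (3.57%), *Bard1*, against 18.3% of all genes. The letters in these windows therefore did not divide the members into the linked and the other genes. A match is not a site in use.

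Members were expressed at low levels. Per kb of transcript, their median in control cells was 2.58 CPM per kb against 8.07 CPM per kb for all genes tested, and 29 of the 35 were below that second value. *Fance*, of the Fanconi core complex, was highest with 12.7 ± 0.922 CPM per kb (SD, n = 4), followed by *Xrcc1* with 11.9 ± 0.525 and *Nbn* with 10.8 ± 1.05 (both SD, n = 4), and neighbours in this order overlapped within their SDs. *Exo1*, with 0.564 ± 0.299, and *Rad51c*, with 0.761 ± 0.123 CPM per kb (both SD, n = 4), were lowest.

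A gene was called when edgeR's quasi-likelihood test gave a Benjamini-Hochberg adjusted p below 0.05 over all genes and the fold was below 0.7 or above 1.43, the inverse of 0.7. None of the 35 members was called (0), where 59 of 13407 genes were (0.440%), and the lowest adjusted p of a member was 0.191. DESeq2 and limma also called 0 members. At an unadjusted p below 0.05, 6 members were higher in CSF1 OE cells, where 10.1% of all genes were, and 1 was lower, where 6.44% were. Of all genes tested 44.8% had a log2 fold change above 0, while 25 of the 35 members did, and the median log2 fold change was 0.18 for the members and -0.034 for all genes. On simulated counts in which 200 of 13407 genes changed 2-fold, a larger change than that of any member, the test recovered 58.0% of them. Those 200 were drawn at random from all genes tested, and the share recovered among genes as low as the members was not measured.

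The members parted by whether they had been listed as having cell cycle-linked transcription. All 15 linked members were higher in CSF1 OE cells, with log2 fold changes from 0.18 (*Msh6*) to 0.82 (*Fanca*) and a median of 0.45, and 6 of them had an unadjusted p below 0.05. Of the other 20 members 10 were higher and 10 lower, with a median of -0.006 and a range from -0.64 (*Rad52*) to 0.42 (*Chek2*), and 1 had an unadjusted p below 0.05. Summed over the linked members, control mice held 151 ± 38.0 CPM and CSF1 OE mice 205 ± 28.8 CPM (SD, n = 4 each). Over the others, the sums were 396 ± 23.8 and 410 ± 16.4 CPM (SD, n = 4 each). The gap between these 2 sets of members was not itself tested. The sets were drawn up with earlier results of these data known, so they are not independent of the data.

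**Figure D1:**
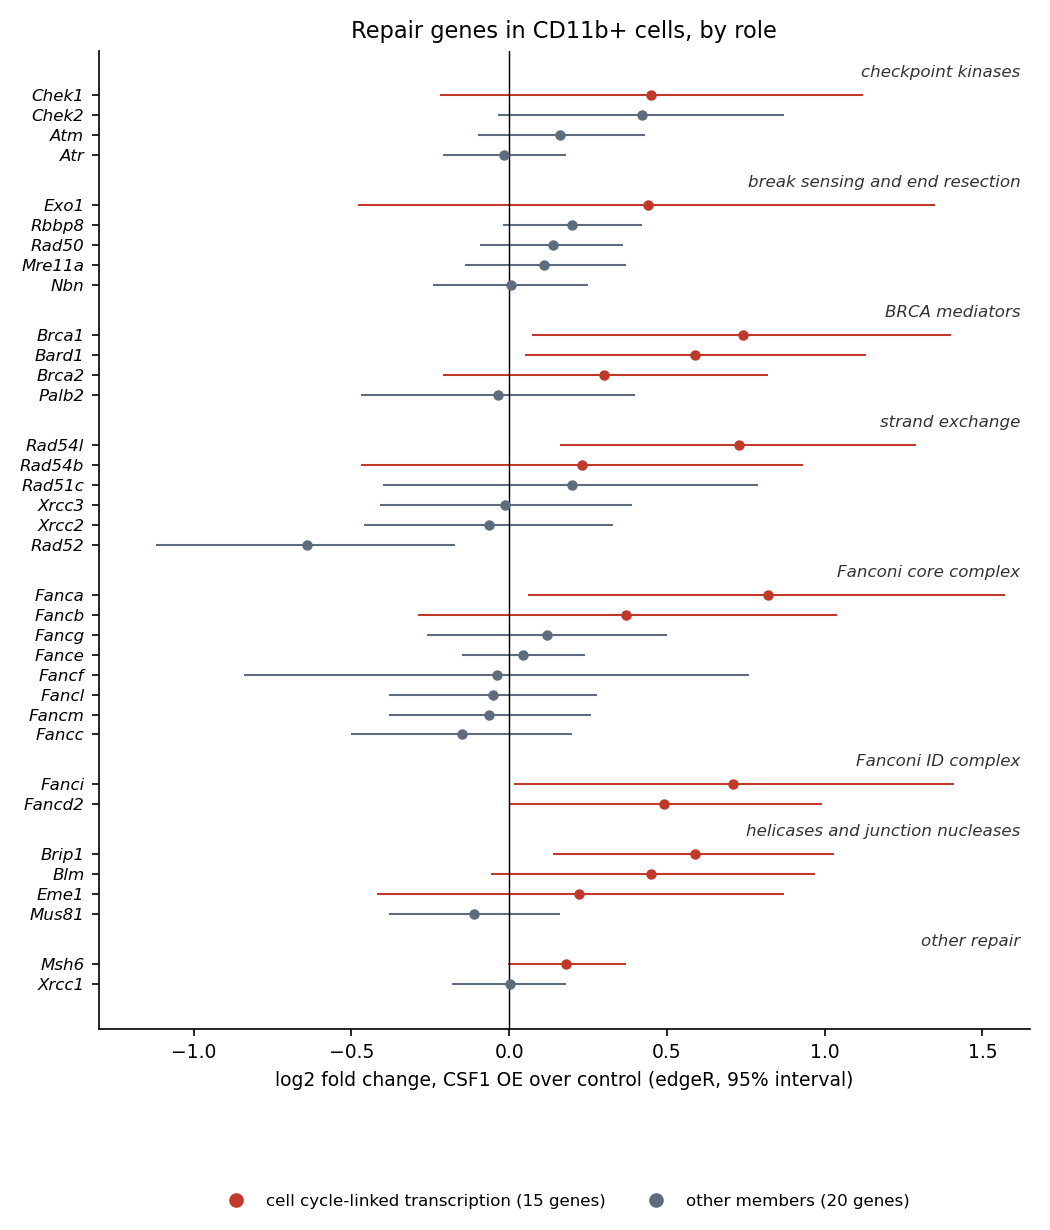
Log2 fold change (x axis, CSF1 OE over control) of each of the 35 members, grouped by role, with points for the edgeR estimate and bars for its 95% interval, from 4 mice per genotype. All 15 red points lie above 0, and *Rad52* is the lowest gene at -0.64.

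Among the BRCA mediators, *Brca1* (chromosome 11, 101488764 to 101551955 in GRCm38), whose protein licenses resection and brings in PALB2, was at 18.6, 9.61, 7.48 and 17.0 CPM in control mice 1827, 1872, 1874 and 1934. Its values in CSF1 OE mice 1931, 1932, 1936 and 2019 were 18.4, 28.2, 23.2 and 18.2 CPM. Controls 1872 and 1874 were low, and control 1827 lay above the lowest CSF1 OE mice, so that the groups overlapped. The log2 fold change was 0.74 (SE 0.29, edgeR, unadjusted p = 0.0333, adjusted p = 0.259). *Bard1*, the ubiquitin ligase partner of BRCA1, was at 7.32, 5.12, 4.46 and 7.04 CPM in the controls and at 8.62, 12.2, 8.66 and 6.64 CPM in CSF1 OE mice, in the same mouse order. The same 2 controls were lowest, and its log2 fold change was 0.59 (SE 0.24, edgeR, adjusted p = 0.264). *Brca2*, a mediator of strand exchange, was at 17.3, 11.8, 12.4 and 23.2 CPM in controls and at 17.7, 24.2, 21.1 and 16.8 CPM in CSF1 OE mice. Control 1934 lay above 3 of the CSF1 OE mice there, and the log2 fold change was 0.30 (SE 0.23, edgeR, adjusted p = 0.535). *Palb2*, the bridge between BRCA1 and BRCA2 and not a linked gene, had a log2 fold change of -0.035 (SE 0.19).

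*Rad54l* and *Rad52* were the members whose groups did not overlap. *Rad54l* (chromosome 4, 116094264 to 116123690), a translocase that acts when the broken strand invades the sister chromatid, was at 6.25, 3.18, 3.25 and 5.56 CPM in controls and at 7.14, 7.49, 8.25 and 7.35 CPM in CSF1 OE mice. Every CSF1 OE mouse was above every control (log2 fold change 0.73, SE 0.25, edgeR, unadjusted p = 0.0172, adjusted p = 0.204). *Lrrc41*, on the opposite strand, shares 15.4% of the exon bases of *Rad54l*, and reads from both cannot be told apart in a library that does not mark strand. Over all genes 6.84% had groups that did not overlap with CSF1 OE higher and 3.45% with CSF1 OE lower, so that 1 of 35 members each way was a share below the background.

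*Rad52* (chromosome 6, 119902698 to 119922828), a single-strand annealing protein that works beside BRCA2, ran the other way. Controls were at 7.59, 6.57, 6.43 and 5.20 CPM and CSF1 OE mice at 4.35, 4.63, 2.93 and 4.60 CPM, so that every CSF1 OE mouse was below every control. The log2 fold change was -0.64 (SE 0.21, edgeR, unadjusted p = 0.0140, adjusted p = 0.191), and *Rad52* shares no exon bases with another gene. It was called lower when a score of other cell types entered the fit (log2 fold change -0.75, SE 0.18, edgeR, adjusted p = 0.0488), and over all the fits run its adjusted p was between 0.0488 and 0.619.

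*Rad51c*, which also acts in strand exchange, was at 3.70, 2.63, 2.72 and 2.96 CPM in controls and at 3.61, 4.04, 4.02 and 2.04 CPM in CSF1 OE mice. Mouse 2019 was the lowest of all 8 (log2 fold change 0.20, SE 0.26, edgeR, adjusted p = 0.739). *Xrcc2* and *Xrcc3*, of the same step, had log2 fold changes of -0.065 (SE 0.17) and -0.014 (SE 0.18). *Rad54b*, a second translocase, had 0.23 (SE 0.31), and 35.9% of its exon bases are shared, among others with *Fsbp* on the same strand, which leaves its counts uncertain.

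In the Fanconi core complex, which adds ubiquitin to FANCD2 and FANCI, *Fanca* had a higher estimate than its partners. It was at 11.8, 5.12, 4.69 and 11.4 CPM in controls and at 12.1, 18.5, 16.3 and 11.2 CPM in CSF1 OE mice, again with controls 1872 and 1874 lowest. Its log2 fold change of 0.82 (SE 0.33, edgeR, unadjusted p = 0.0370, adjusted p = 0.267) was the largest of all members, and *Zfp276* on the opposite strand shares 10.5% of its exon bases. *Fancb*, the scaffold of the catalytic module, had 0.37 (SE 0.29). The 6 partners without the link ran from -0.15 (*Fancc*, SE 0.16) to 0.12 (*Fancg*, SE 0.17), with *Fance* at 0.043 (SE 0.087), *Fancf* at -0.04 (SE 0.36), *Fancl*, the ligase itself, at -0.051 (SE 0.15) and *Fancm*, which docks the complex on DNA, at -0.063 (SE 0.14). The estimates for this complex lay on both sides of 0, none of its genes was called, and differences between its genes were not tested.

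Both genes of the ID complex, the target of that ubiquitin, were higher. *Fanci* was at 10.5, 4.08, 4.01 and 7.51 CPM in controls and at 11.3, 11.1, 11.3 and 9.21 CPM in CSF1 OE mice. Control 1827 was above mouse 2019, and the log2 fold change was 0.71 (SE 0.31, edgeR, unadjusted p = 0.0458, adjusted p = 0.291). *Polg* on the opposite strand shares 16.0% of the exon bases of *Fanci*. *Fancd2* was at 14.4, 7.88, 8.54 and 13.2 CPM in controls and at 14.9, 17.3, 17.0 and 12.7 CPM in CSF1 OE mice. Controls 1872 and 1874 were again lowest, and controls 1827 and 1934 lay above mouse 2019 (log2 fold change 0.49, SE 0.22, edgeR, adjusted p = 0.303).

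*Brip1*, a helicase that binds BRCA1 and is also a Fanconi protein, was at 11.3, 6.43, 7.86 and 8.40 CPM in controls and at 11.1, 15.7, 12.4 and 11.9 CPM in CSF1 OE mice. Only control 1827 reached the CSF1 OE range (log2 fold change 0.59, SE 0.20, edgeR, unadjusted p = 0.0155, adjusted p = 0.196). *Blm*, the helicase that dissolves double Holliday junctions, had a log2 fold change of 0.45 (SE 0.23). *Eme1* and *Mus81*, the subunits of 1 junction nuclease, had 0.22 (SE 0.29) and -0.11 (SE 0.12).

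**Figure D2:**
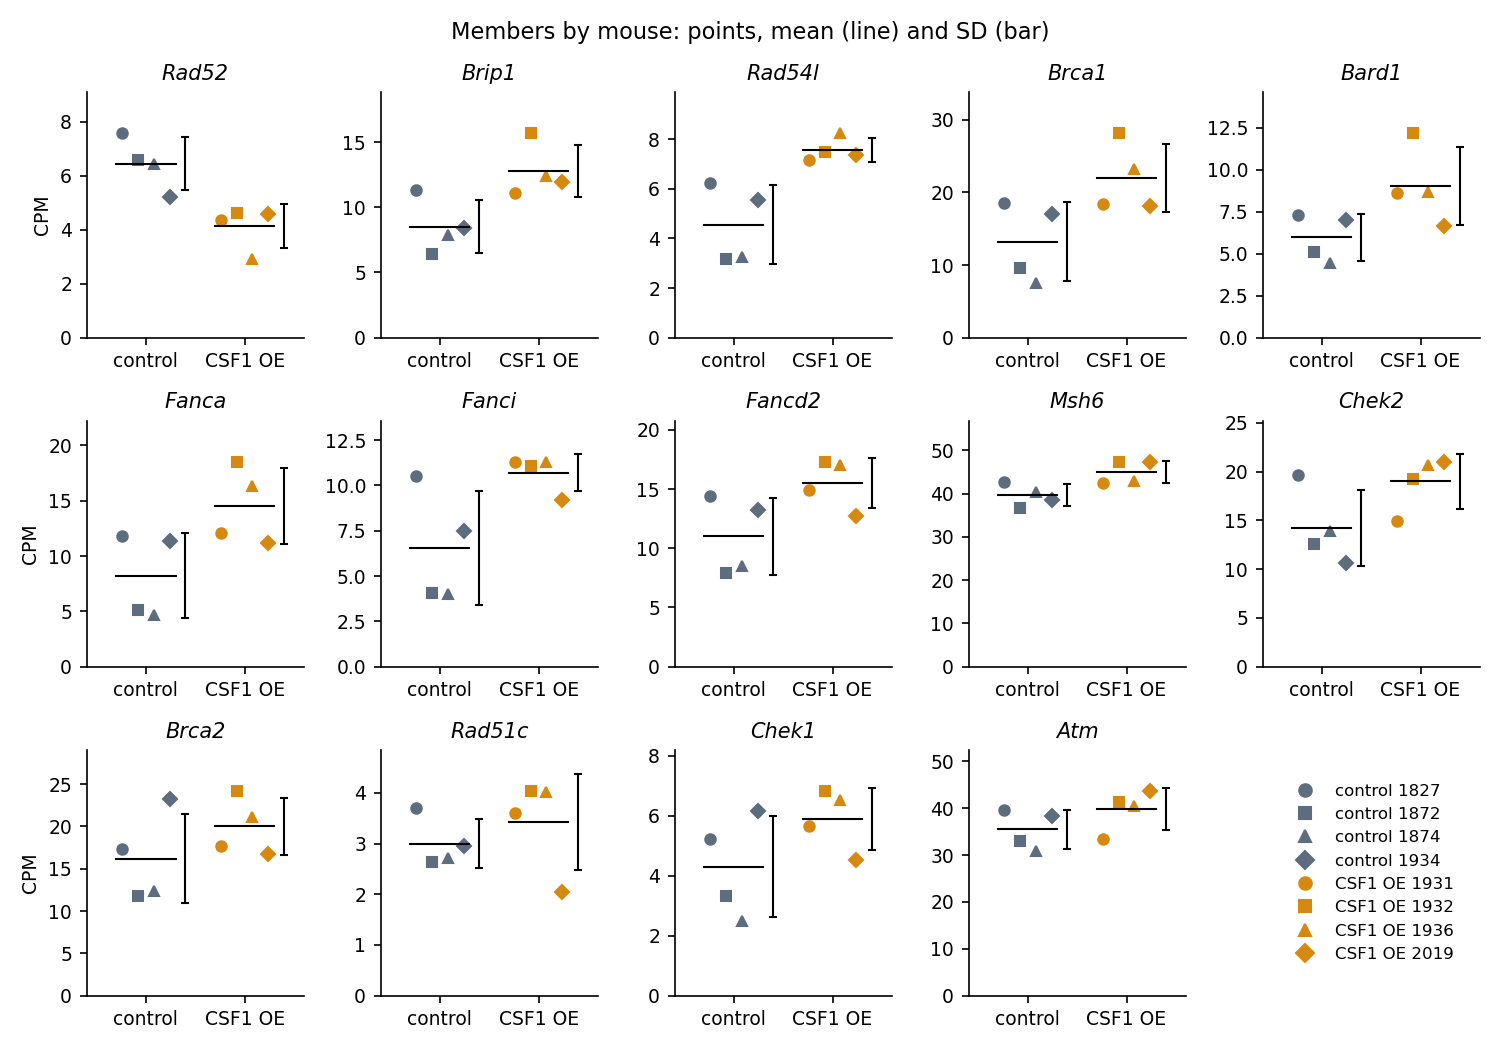
CPM (y axis, from 0) of 14 members in each control and CSF1 OE mouse, with a symbol for each mouse, a line for the group mean and a bar for the SD (n = 4). Controls 1872 and 1874 are the lowest mice for *Brca1*, *Fanca* and *Fanci*, while *Rad52* shows all CSF1 OE mice below all controls.

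Of the checkpoint kinases, *Chek1*, the effector of ATR in S and G2 phase, was at 5.24, 3.32, 2.49 and 6.15 CPM in controls and at 5.67, 6.83, 6.54 and 4.51 CPM in CSF1 OE mice. Its groups overlapped (log2 fold change 0.45, SE 0.30, edgeR, adjusted p = 0.481). *Chek2*, the effector of ATM, was at 19.7, 12.6, 13.9 and 10.6 CPM in controls and at 14.9, 19.3, 20.7 and 21.0 CPM in CSF1 OE mice. Control 1827 was high there, as it was for the mean of the linked genes, but control 1934 was the lowest, unlike for that mean (log2 fold change 0.42, SE 0.20, edgeR, adjusted p = 0.337). *Atm* was at 39.6, 33.1, 30.8 and 38.4 CPM in controls and at 33.4, 41.4, 40.5 and 43.7 CPM in CSF1 OE mice. Mouse 1931 lay among the controls and the other CSF1 OE mice above them (log2 fold change 0.16, SE 0.12, edgeR, adjusted p = 0.522). *Atr* had a log2 fold change of -0.015, and its 95% interval from -0.21 to 0.18 bounds a difference in either direction.

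The sensors of broken ends differed little between the genotypes. *Mre11a*, *Rad50* and *Nbn*, the subunits of the complex that binds the end and starts resection, had log2 fold changes of 0.11 (SE 0.11), 0.14 (SE 0.10) and 0.0061 (SE 0.11). *Rbbp8*, which switches that complex on, had 0.20 (SE 0.097). *Exo1*, the nuclease of long resection and a linked gene, had 0.44 with an SE of 0.40 and held between 31 and 111 counts per library. *Msh6*, a mismatch sensor and the most abundant linked gene, was at 42.7, 36.7, 40.4 and 38.5 CPM in controls and at 42.5, 47.2, 43.0 and 47.3 CPM in CSF1 OE mice. Its spread was narrow and its groups nearly apart (log2 fold change 0.18, SE 0.083, edgeR, adjusted p = 0.307). *Xrcc1*, the scaffold of single-strand break repair, had 0.0016 (SE 0.078), the smallest difference of the members.

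The direction of the linked members was that of genes of dividing cells. Of 39 S phase genes tested 35 were higher in CSF1 OE cells (median log2 fold change 0.48), and 1 was called, *Pcna*, the sliding clamp of replication. Of 52 G2 and M phase genes 49 were higher, with a median of 0.57, and 0 were called by edgeR or limma and 8 by DESeq2, while 29 had an unadjusted p below 0.05 in the higher direction. *Pcna* rose from 165 ± 19.3 to 241 ± 8.37 CPM (SD, n = 4 each; log2 fold change 0.55, SE 0.094, edgeR, adjusted p = 0.0499). *Mki67* was at 268, 111, 151 and 252 CPM in controls and at 286, 395, 327 and 298 CPM in CSF1 OE mice (log2 fold change 0.74, SE 0.26, edgeR, adjusted p = 0.219). *Top2a* (0.78, SE 0.25), *Cdk1* (0.71, SE 0.18) and *Mcm2* (0.52, SE 0.25) had log2 fold changes of the size of *Brca1*. In bulk RNA, more dividing cells and more RNA of these genes per cell cannot be told apart.

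Mouse by mouse, the linked members and the proliferation genes followed the same order in broad terms. The mean log2 CPM of the 20 proliferation genes was 5.27, 4.10, 4.48 and 5.08 in control mice 1827, 1872, 1874 and 1934, and 5.36, 5.66, 5.53 and 5.32 in CSF1 OE mice 1931, 1932, 1936 and 2019. The mean log2 CPM of the linked members, relative to a control mean, was 0.38, -0.35, -0.37 and 0.34 in those controls and 0.37, 0.72, 0.55 and 0.25 in the CSF1 OE mice. Controls 1872 and 1874 were lowest on both measures, and CSF1 OE mice 1932 and 1936 highest. Controls 1827 and 1934 lay above CSF1 OE mouse 2019 for the linked members, so that the groups overlapped there, while every CSF1 OE mouse was above every control for the proliferation genes. For the other 20 members the same means lay between -0.076 and 0.098 in all 8 mice.

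**Figure D3:**
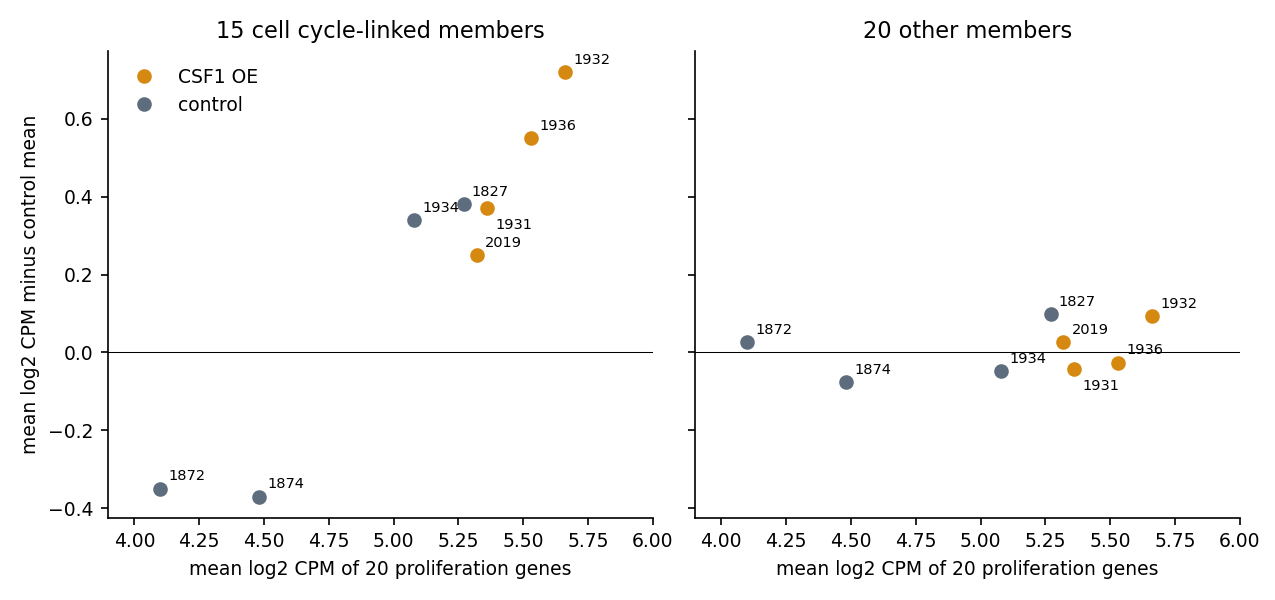
Mean log2 CPM of the 20 proliferation genes (x axis) against the mean log2 CPM of the members minus the control mean (y axis), 1 point per mouse, for the 15 linked members (left) and the 20 others (right). On the left controls 1872 and 1874 sit near -0.35 and the other 6 mice between 0.25 and 0.72, and on the right all 8 mice stay between -0.076 and 0.098.

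This was measured gene by gene as the slope on the proliferation score, in log2 units per log2 unit, in a fit that also held genotype and so compares mice within a genotype. This measure was chosen after seeing the data, and it rests mostly on the controls, whose scores ran from 4.10 to 5.27 while those of CSF1 OE mice ran from 5.32 to 5.66. At an unadjusted p below 0.05 a positive slope was found for 14 of the 15 linked members and for 0 of the other 20, against 3.14% of all genes. Such slopes were not confined to cell cycle genes. All 4 red blood cell markers tested had one at that p, with a median slope of 2.41, against 0.88 for the linked members. Median slopes were also high for markers of granule cell precursors and neuroblasts (1.31) and of neurons (1.03), with 0 genes at that p. No member passed at an adjusted p below 0.05 (0 of 35), where 20 genes did (0.149%), and the lowest adjusted p was 0.131, of *Fanca*. Slopes were 1.55 (SE 0.32) for *Exo1*, 1.30 (SE 0.25) for *Fanca*, 1.15 (SE 0.25) for *Fanci* and 1.06 (SE 0.25) for *Brca1*, and 0.12 (SE 0.12) for *Msh6*, the linked gene without such a slope. Leaving out 1 mouse at a time left between 10 and 13 linked genes, and at most 2 of the others, with a positive slope at that p; the share of all genes rose to 13.4% without control 1827. *Rad52* had a slope of -0.0033 (SE 0.31).

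**Figure D4:**
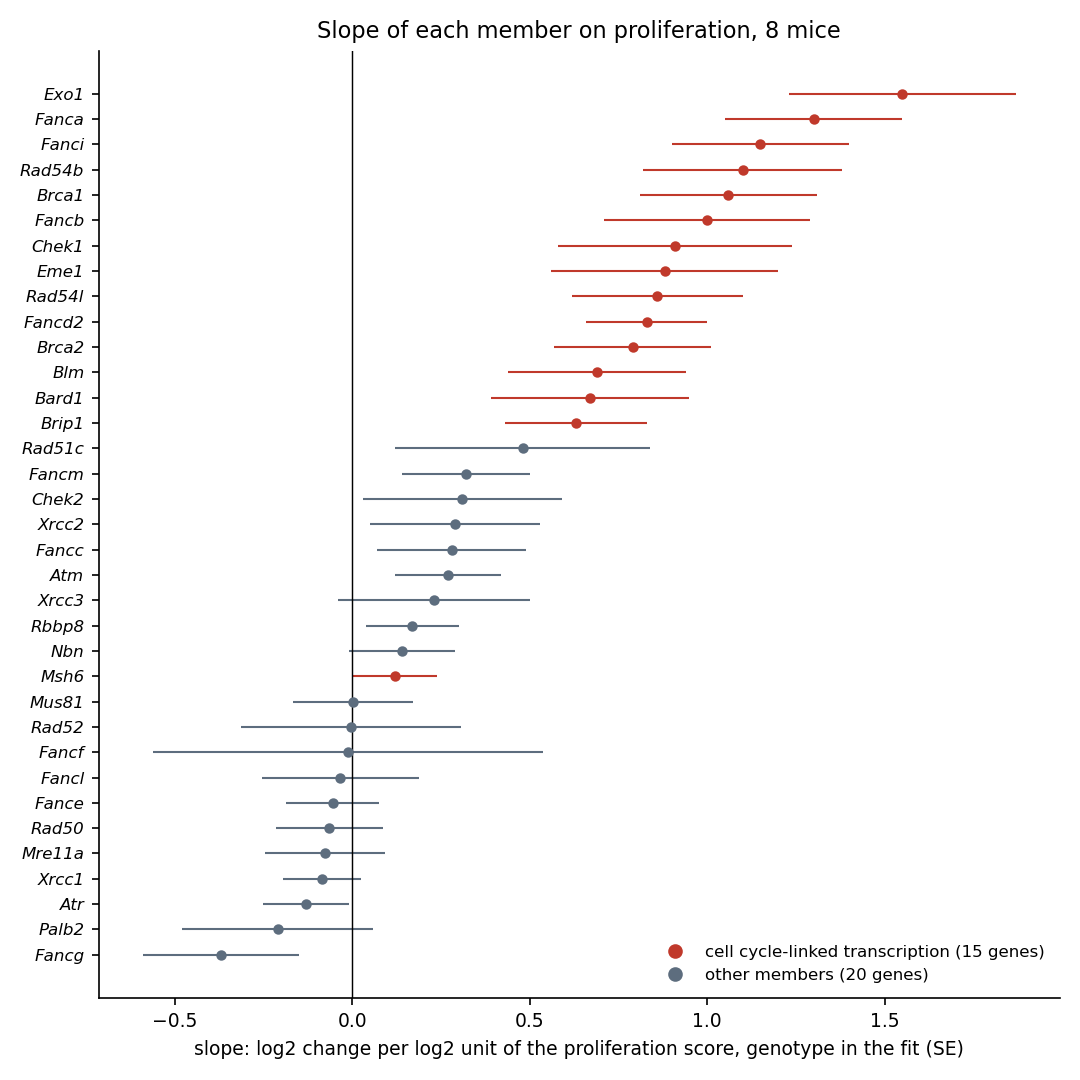
Slope of each member on the proliferation score (x axis, log2 per log2 unit, bars are SE) from the fit with genotype over 8 mice, in order of size. The 14 steepest genes, from *Brip1* at 0.63 to *Exo1* at 1.55, are all linked members, and *Msh6* lies among the others at 0.12.

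With the proliferation score in the fit, little of the genotype difference in the linked members was left. Of the 15 linked members 5 were higher (median log2 fold change -0.045), and of all 35 members 14 were higher. None had an unadjusted p below 0.05 (0 of 35), where 7.80% of all genes did. *Brca1* went from 0.74 to 0.018 (SE 0.25), *Fanca* from 0.82 to -0.045 (SE 0.24) and *Rad54l* from 0.73 to 0.16 (SE 0.23). *Rad52* stayed at -0.64 (SE 0.31, edgeR, unadjusted p = 0.0734). Because score and genotype overlap, with every CSF1 OE score above every control score, this fit has little information on genotype, and 0 of all genes were called in it (1046 had an unadjusted p below 0.05).

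Genes of the neighbouring repair pathways were counted in the same way. Of 41 other recombination and Fanconi genes tested 31 were higher, with a median of 0.18, and 1 was called. That was *Dna2*, the nuclease and helicase of long resection and of replication forks, at 10.9, 7.75, 7.26 and 10.9 CPM in controls and at 22.4, 26.4, 29.4 and 23.6 CPM in CSF1 OE mice. It rose from 9.21 ± 1.98 to 25.5 ± 3.12 CPM (SD, n = 4 each; log2 fold change 1.47, SE 0.17, edgeR, adjusted p = 0.0220), with the groups far apart. With the proliferation score in the fit its log2 fold change was 1.08 (SE 0.18), and over all fits its adjusted p was between 3.38e-12 and 0.527. *Slx4*, a scaffold of junction nucleases, had the lowest value of that list at -0.29 (SE 0.13).

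Pathways less bound to the cell cycle lay close to 0. Medians were -0.033 for 10 end joining genes, -0.002 for 6 mismatch repair genes, 0.05 for 22 nucleotide excision repair genes and 0.11 for 21 genes of base excision and single-strand break repair, and 0 genes of these lists were called by edgeR or limma and 1 by DESeq2. At an unadjusted p below 0.05, 4 of these genes were higher and 2 lower. The highest genes of the end joining and base excision lists are both known to be transcribed in cycling cells, *Polq* of alternative end joining at 0.61 (SE 0.28) and the glycosylase *Neil3* at 0.70 (SE 0.26). Of 19 other checkpoint and break response genes 15 were higher, with a median of 0.091, led by *Clspn*, the ATR mediator at the fork, at 0.85 (SE 0.30), which also stands in the S phase list. Of 19 targets of p53, which break signalling switches on, 8 were higher, with a median of -0.085, and 0 were called by edgeR, DESeq2 or limma, with 0 higher and 1 lower at an unadjusted p below 0.05. The largest differences among them were -0.79 (SE 0.30) for *Phlda3* and 0.35 (SE 0.55) for *Eda2r*.

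**Figure D5:**
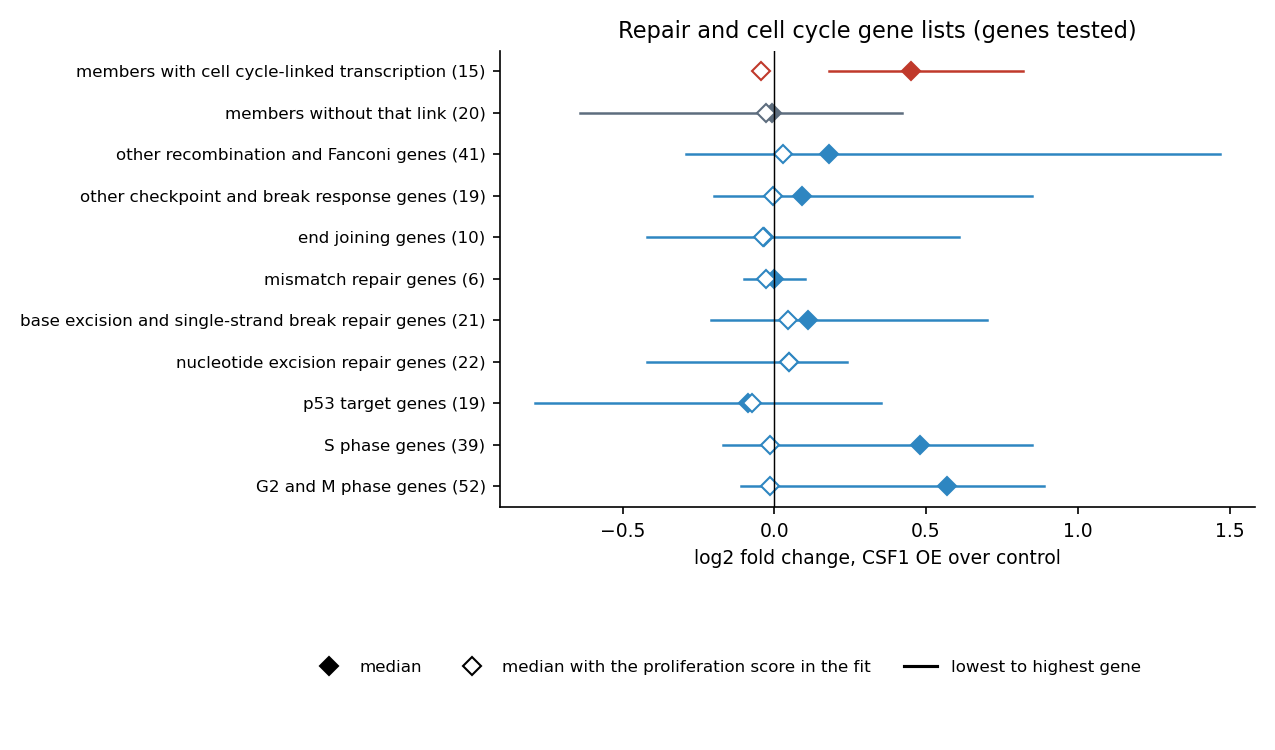
Log2 fold change (x axis, CSF1 OE over control) of the members and of the other repair and cell cycle lists, with a filled diamond for the median, a line from the lowest to the highest gene, and an open diamond for the median with the proliferation score in the fit. Linked members (0.45), S phase genes (0.48) and G2 and M phase genes (0.57) have the highest filled medians, and their open diamonds lie between -0.045 and -0.013.

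Markers of other cells differed between the same libraries. None of 8 endothelial markers (0) was higher in CSF1 OE cells, with sums from 616 to 1015 CPM in controls and from 307 to 716 CPM in CSF1 OE mice, and of 8 border macrophage markers 0 were higher, with sums from 1578 to 2535 and from 1269 to 1897 CPM. Markers of granule cell precursors and neuroblasts, which divide in the brain at this age, held 75.9, 119, 125 and 399 CPM in controls and 125, 351, 97.5 and 53.5 CPM in CSF1 OE mice. They were high in 1934 and 1932 and did not follow genotype. Red blood cell markers held 664, 209, 241 and 749 CPM in controls and 40.0, 353, 184 and 32.3 CPM in CSF1 OE mice, so that controls 1827 and 1934, the higher controls for linked members, were also the higher ones there. With a score of 7 lists of such cells in the fit all 15 linked members were still higher, at a median of 0.55 on the log2 scale. The part of cells that are not in that score, among them red blood cells, border macrophages and choroid plexus and ependyma, was not tested.

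Animal numbers overlap with genotype, since 1 control and 3 CSF1 OE mice have numbers from 1931 to 1936. A term for that range left 14 of the 15 linked members higher, at a median of 0.22 on the log2 scale, and 5 of the 35 members at an unadjusted p below 0.05, where 32.6% of all genes were. Of the linked genes these were *Rad54l* at 0.62 (edgeR, unadjusted p = 0.0449), *Brip1* at 0.56 (unadjusted p = 0.0370) and *Msh6* at 0.22 (unadjusted p = 0.0402). Of the others they were *Chek2* at 0.61 (edgeR, unadjusted p = 0.0153) and *Rad50* at 0.24 (unadjusted p = 0.0229), all with 4 mice per genotype. *Rad54b* was at -0.017 in that fit. No member was called there (0), at adjusted p of 0.0799 or more, while 1274 of all genes were.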

How the data were processed

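Each of the 8 mice gave 1 RNA library of CD11b+ cells. The authors mapped paired reads with Bowtie 1.0.0 and estimated expected counts per gene with RSEM 1.2.7, after bcl2fastq 1.8.4, and the submitters' processing notes name mm10. Which annotation and strand setting were used is not given in the sources used here. The deposited expected counts are not normalized, and a second deposited table holds the same values divided by a size factor per mouse, a signal on the scale of counts. The libraries were grouped by the genotype in their labels.

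Expected counts were rounded and compared with edgeR 4.0.16 under R 4.3.3 (TMM, filterByExpr, glmQLFit, glmQLFTest, two-sided, Benjamini-Hochberg over all 13407 genes). CPM used the TMM factors. The 20 proliferation genes and 7 lists of other cells were scored from log2 CPM with a prior count of 2. Lengths, positions and exon overlaps are from GENCODE M21, with the longest coding transcript per gene, and start-site windows from RefSeq GRCm38.p6. On simulated counts (200 of 13407 genes changed 2-fold) edgeR recovered 58.0% with 7.2% false calls and DESeq2 1.42.0 68.5% with 22.2%. A floor of 3 counts was 0.177 to 0.266 CPM, for counting error alone. Over 28 pairs of libraries the chi-square per gene was 15.1 or more, so none was deposited more than once.

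Alternatives were DESeq2, upper-quartile factors, other filters, limma 3.58.1 (trend) on log2 of the authors' values with a pseudocount of 1, terms for the range of animal numbers, for the proliferation score and for other cells, removal of length and GC trends, no fold threshold, and each mouse left out. The members and lists were chosen with earlier results of these data known. Values in every mouse are given for the 10 members with the smallest unadjusted p and for *Brca1*, *Brca2*, *Fancd2*, *Rad51c*, *Chek1* and *Atm*, and of the other lists the genes with the largest rise and fall.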

Additional observations from a re-analysis of the deposited data

Results flagged for a closer look

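In 4 of the 70 groups of 4 mice (35 members in each genotype) 1 mouse stood far from the other 3, by Dixon's test at the 95% level, where chance gives about 1 in 20 groups. *Rad52* was at 2.93 CPM in CSF1 OE mouse 1936 and between 4.35 and 4.63 CPM in the other CSF1 OE mice. *Fanci* was at 9.21 CPM in CSF1 OE mouse 2019 and between 11.1 and 11.3 CPM in the others. *Rad50* was at 54.3 CPM in the same mouse 2019, against 45.4 to 46.3 CPM. *Mus81* was at 19.1 CPM in CSF1 OE mouse 1931, against 16.4 to 16.8 CPM. Without mouse 1936 the log2 fold change of *Rad52* was -0.50 (SE 0.19, edgeR, adjusted p = 0.296).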

How the results depend on the processing

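No member was called under any alternative but 1, the score of other cell types, which called 1 member (*Rad52*, log2 fold change -0.75). Of 238 alternative values of the members given by mouse, 229 kept direction and call, and 8 turned direction: with the proliferation score *Fanca* (-0.045), *Fanci* (-0.017), *Fancd2* (-0.074), *Brca2* (-0.25), *Rad51c* (-0.16), *Chek1* (-0.17) and *Atm* (-0.029), and with the term for animal numbers *Rad51c* (-0.043). With the proliferation score 14 members were higher, 0 had an unadjusted p below 0.05, and the medians were -0.03 for members, -0.013 for S phase and -0.015 for G2 and M phase genes. The last list holds many genes of the score itself. Leaving out 1 mouse at a time gave 3 to 12 members at an unadjusted p below 0.05 (7 with all mice): 3 without control 1872, control 1874 or CSF1 OE mouse 1932, 4 without CSF1 OE mouse 1936, and 12 without control 1934. All genes called numbered 59, and 3 to 164 with 1 mouse left out (3 without control 1872 or 1874, 164 without control 1827), 430 with DESeq2, 105 with limma, 0 with the proliferation score, 352 with that of other cells, 1274 with the term for animal numbers, 17 with length and GC trends removed and 19 with upper-quartile factors. No paired analysis was possible because the labels give no replicate numbers. Members with 12 to 38 counts, as *Fancf*, allow only wide intervals (-0.84 to 0.76).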
